A study of Mus musculus with 15 samples.

Results

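Solute carriers are the membrane proteins that move sugars, amino acids, ions, metals, nucleotides and vitamins across cell and organelle membranes. Their transcripts were followed here in sorted mouse microglia. Members were the genes whose symbol begins with Slc and a digit and whose mean over 15 RNA-seq libraries was at least 5 TPM, a transcript abundance corrected for gene length and scaled to a like total per library. Of the 13834 genes in the table, 230 had such a symbol and 160 reached that mean. Slc2a5, Slc11a1, Slc11a2, Slc40a1 and Slc1a2 were left out by the rule, which left 155 members. The members were chosen by their mean TPM over all libraries, which is given as a description and was not tested. Just inside the threshold lay Slc25a40 at 5.03, Slc13a3 at 5.18 and Slc9b1 at 5.18 TPM, and just outside lay Slc25a35 at 4.99, Slc19a1 at 4.87 and Slc25a14 at 4.57 TPM. All 155 members passed the filter on low values, 140 had a mean of at least 5 TPM in every group, and 15 had a lower mean in at least 1 group.

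The libraries came from microglia, the resident macrophages of the brain, sorted by flow cytometry from mouse brain. Untreated mice of 18 months gave microglia sorted for high autofluorescence (AF-high, n = 5) and for low autofluorescence (AF-low, n = 3). The PLX5622 group (n = 4) came from mice of that age treated with PLX5622, which blocks the CSF1 receptor on which microglia depend. Untreated mice of 3 months gave the young group (n = 3). The sources used here do not give strain, sex, compound dose or schedule. Nor do they say how young and PLX5622 cells were gated for autofluorescence, or whether a library came from 1 animal or a pool. The age or treatment of those groups and the way their cells were gated therefore cannot be told apart. The p-values cover only library-to-library spread, which may be technical.

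Solute carriers work as uniporters, cotransporters or exchangers, and most draw on an existing gradient rather than on ATP. Plasma membrane members decide which nutrients and ions enter a cell, and lysosomal members return the products of digestion to the cytosol. Most of the Slc25 family links the cytosol to the mitochondrial matrix. In microglia, which take up and digest debris, lysosomal amino acid, nucleoside and heme exporters and the carriers that feed glycolysis and glutathione synthesis are of particular interest.

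Library totals ran from 956489 to 963145 TPM, no value equalled 0 (0 values), and the depth in reads is unknown. All 8 microglial markers searched were in the table, with summed levels of 6090 to 11200 TPM per library. Of 9 choroid plexus markers 7 were in the table, and their sum was 8830 and 5830 TPM in young 1 and young 2 against 34.8 to 378 TPM elsewhere. The astrocyte marker sum (7 of 8 in the table) was 143 and 141 TPM in the same young libraries and 9.73 to 30.8 TPM in all others. All 8 markers of border-associated macrophages, the macrophages of meninges and vessels, were present, with sums of 150 to 277 TPM in AF-high, 259 to 412 in AF-low, 110 to 135 in young and 69.4 to 99.1 in PLX5622. Endothelial (3 of 8), oligodendrocyte (5 of 6), neuronal (3 of 5) and erythroid (1 of 4) markers were partly in the table, and neutrophil markers were not (0 of 4). In bulk RNA, fewer cells of a type and less RNA per cell cannot be told apart.

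The 155 members together made up 7149 ± 467 TPM in AF-high (SD, n = 5), 7381 ± 292 in AF-low (n = 3), 6997 ± 543 in young (n = 3) and 6585 ± 427 in PLX5622 (n = 4). The ranges of these sums overlapped between AF-high (6437 to 7643 TPM), young (6427 to 7507) and PLX5622 (6015 to 6928), whereas the AF-low libraries (7104 to 7685) all lay above the PLX5622 libraries. Each member was assigned to a class by what it carries. The 27 carriers of amino acids, peptides and amine compounds took 30.8% to 39.7% of the members' TPM in a library, and the 31 mitochondrial carriers took 16.5% to 22.6%. Median levels over all libraries were 32.1 TPM for the amino acid class, 22.2 for the 24 carriers of inorganic ions and phosphate and 19.7 for the 20 carriers of nucleosides, nucleotides and nucleotide sugars. They were 18.7 TPM for the 20 carriers of zinc, copper, magnesium and manganese, 17.0 for the mitochondrial carriers, 14.4 for the 17 carriers of carboxylates, lipids and choline and 13.7 for the 9 sugar carriers. The 4 carriers of vitamins and heme had a median of 40.4 TPM. The remaining 3 members carry an Slc symbol but are not transporters.

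**Figure D1:**
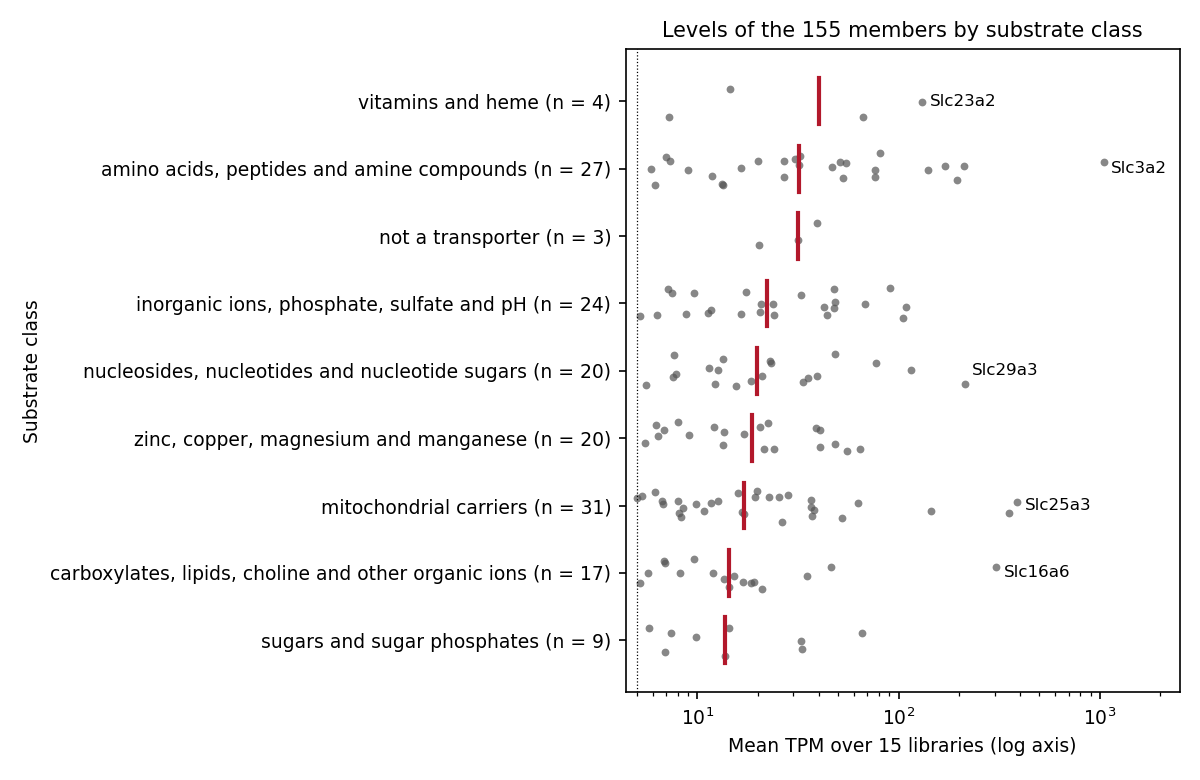
Mean TPM over 15 libraries (log axis) of each of the 155 members, 1 point per member, by substrate class; the red bar is the class median, the dotted line the 5 TPM threshold, and the highest member of a class is named where its mean is above 120 TPM. The amino acid class holds Slc3a2, the member with the highest mean at 1046 TPM, and class medians run from 13.7 TPM for sugars to 40.4 TPM for vitamins and heme.

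The levels of 4 members stood well above the rest of the family. Slc3a2, the heavy chain that carries several amino acid exchangers to the cell surface, averaged 1046 TPM, followed by the mitochondrial phosphate carrier Slc25a3 at 389.5 TPM, the mitochondrial ADP/ATP carrier Slc25a5 at 353 TPM and the monocarboxylate transporter family member Slc16a6 at 307 TPM. Next came the lysosomal nucleoside carrier Slc29a3 at 213 TPM, Slc38a6 at 212 and the lysosomal histidine and peptide carrier Slc15a3 at 196. For Slc16a6, exons of Amz2 and Arsg lie on the opposite strand, and for Slc15a3 an exon of Tmem132a does. Of the 155 members, 46 had an exon overlapping an exon of another gene in GENCODE M21, 41 of them on the other strand and 7 on the same strand. No source used here says whether counting kept strands separate, so reads of such pairs cannot be told apart.

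Across the 6 comparisons of groups, 1 member passed the test: Slc39a1, a zinc importer, was lower in PLX5622 than in AF-high. Changes are differences of log2(TPM + 1) ± SE, tested with limma over 13175 genes, and a gene was called at an adjusted p under 0.05. In PLX5622 against AF-high, 1 of 155 members was called (0.645%), beside 83 of all genes tested (0.630%), so the members' share was near the background. In AF-low against young, 0 members and 6 genes (0.0455%) were called. The corresponding counts were 0 members and 19 genes (0.144%) in PLX5622 against AF-low, and 0 members and 12 genes (0.0911%) in PLX5622 against young. AF-high against AF-low and AF-high against young gave 0 members and 0 genes (0%). The F test over the 4 groups called 0 members and 46 genes (0.349%).

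At an unadjusted limma p under 0.05, 27 members passed in PLX5622 against AF-high beside 15.3% of all genes, 26 in PLX5622 against AF-low beside 14.3%, and 5 in PLX5622 against young beside 5.23%. The counts were 18 members in AF-high against AF-low beside 8.21% of all genes, 16 in AF-high against young beside 11.0% and 22 in AF-low against young beside 11.8%. As shares of the 155 members these were 17.4%, 16.8%, 3.23%, 11.6%, 10.3% and 14.2%, each within a few percentage points of the share over all genes. The members' median change also lay close to that of all genes tested. In PLX5622 against young it was -0.12 beside -0.11, with 37 members higher and 118 lower, and in AF-high against AF-low it was 0.03 beside -0.04, with 81 higher and 74 lower. In the other 4 comparisons the members' medians lay between -0.08 and -0.03 and those of all genes between -0.08 and -0.02. Scaling each library to a common median moved the all-gene median of PLX5622 against young from -0.11 to 0 and the members' median from -0.12 to -0.01.

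**Figure D2:**
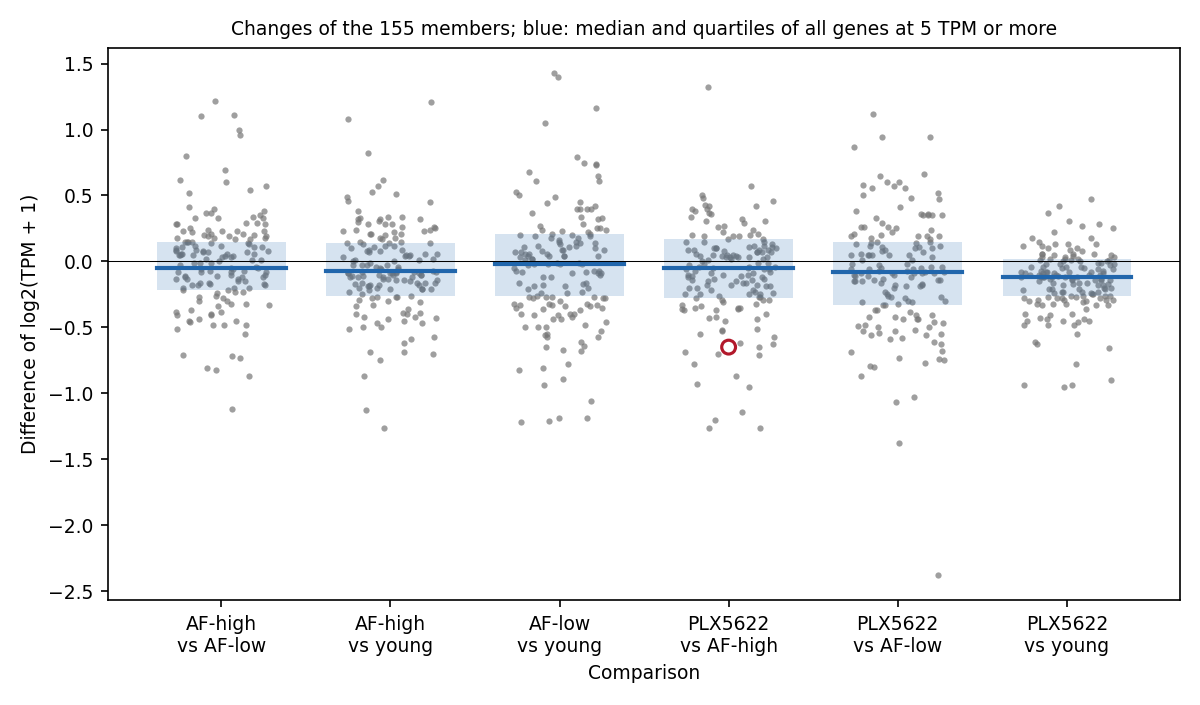
Differences of log2(TPM + 1) for the 155 members in each of the 6 comparisons, 1 grey point per member; the blue line and box are the median and quartiles of all genes at 5 TPM or more, and the red circle is Slc39a1 in PLX5622 against AF-high. The members scatter around the blue medians, which run from -0.12 to -0.02, and Slc39a1 at -0.65 is the called member.

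Members of which every library in 1 group lay above every library of the other numbered 6 in AF-high against AF-low (2.76% of all genes did so), 13 in AF-high against young (7.78%) and 28 in AF-low against young (19.3%). They numbered 13 in PLX5622 against AF-high (6.55%), 27 in PLX5622 against AF-low (16.2%) and 23 in PLX5622 against young (16.0%). A pattern seen after the values were known set the 8 AF-high and AF-low libraries apart from the 7 young and PLX5622 libraries, with no overlap, in 4 members (2.58% of members, beside 0.873% of all genes). Slc39a1 was the higher one, and Slc12a2, Slc39a12 and Slc46a1 were the lower ones. The summed border-associated macrophage markers split the libraries the same way, from 150 TPM upwards in AF-high and AF-low and up to 135 TPM in the others. Of the single markers only Mrc1 did so, at 21.4 TPM and above against 18.5 TPM and below. Dab2, the marker with the highest levels, overlapped, with AF-high 4 at 63 TPM and young 2 at 71.4 TPM. The part of these markers in the results was not tested.

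Slc39a1 encodes ZIP1, a plasma membrane importer of zinc. The gene lies on the plus strand of chromosome 3 at 90248172 to 90253612 (GRCm38) and shares no exon sequence with another gene. Slc39a1 was at 77.8, 71.5, 70.3, 52.1 and 66.5 TPM in AF-high 1 to 5, at 65.8, 58.4 and 64.5 TPM in AF-low 1 to 3, at 43.5, 43.6 and 42.9 TPM in young 1 to 3 and at 42.4, 46.4, 34.6 and 46.7 TPM in PLX5622 1 to 4. The lowest AF-high or AF-low library was at 52.1 TPM and the highest young or PLX5622 library at 46.7 TPM, so neither old gated group overlapped with young or PLX5622. Group means were 67.6 ± 9.62 TPM (SD, n = 5) in AF-high, 62.9 ± 3.94 (n = 3) in AF-low, 43.3 ± 0.373 (n = 3) in young and 42.5 ± 5.62 (n = 4) in PLX5622.

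Slc39a1 fell by 0.65 ± 0.13 on the log2 scale in PLX5622 against AF-high (limma adjusted p = 0.0419). The other contrasts between the same sets did not pass: AF-high exceeded young by 0.62 ± 0.14 (adjusted p = 0.123), AF-low exceeded young by 0.53 ± 0.16 (adjusted p = 0.219), and PLX5622 differed from AF-low by -0.56 ± 0.15 (adjusted p = 0.135). AF-high and AF-low differed by 0.09 ± 0.14 (adjusted p = 0.893) and PLX5622 and young by -0.04 ± 0.15 (adjusted p = 0.995). The call held in 8 of 26 alternative settings, with a change of -0.74 to -0.54 throughout. It was lost without any 1 of AF-high 1, 2, 3 or 5, AF-low 3, the 3 young or the 4 PLX5622 libraries (adjusted p = 0.0503 to 0.178), with quantile normalization (0.0712), with median scaling (0.0625) and with only both groups in the fit (0.111).

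The sequence before the RefSeq start of Slc39a1 is shown because this gene carried the called difference. It is the RefSeq window (GRCm38.p6, plus strand, chr3:90247942-90248191), all in lower case because none of the 5 motifs searched was found in it: the metal response core as TGCACNC or TGCGCNC, the amino acid response element TGATGNAA, the interferon-stimulated response element and the lysosomal E-box TCACGTGA, each on both strands in the 250 bases before the start.
Slc39a1: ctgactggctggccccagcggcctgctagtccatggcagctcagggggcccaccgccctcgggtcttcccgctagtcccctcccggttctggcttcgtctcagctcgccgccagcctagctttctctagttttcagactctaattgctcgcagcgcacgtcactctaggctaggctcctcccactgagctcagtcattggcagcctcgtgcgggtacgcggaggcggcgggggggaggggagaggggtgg
Of 27018 genes with such a window, 11.8% held TGCACNC and 14% held TGCGCNC, and of the 119 members with a window 16% and 21% did. The RefSeq start of Slc39a1 lies inside the GENCODE M21 gene span given above, so the last bases of its window do too. A match, or none, describes these letters only.

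The 20 metal carriers together made up 484 ± 40.8 TPM in AF-high, 515 ± 69.8 in AF-low, 472 ± 20.3 in young and 435 ± 22.9 in PLX5622. Slc30a9, a zinc transporter linked to mitochondria, was at 56.8 ± 14.2 TPM in AF-high, 78.1 ± 19.9 in AF-low, 67.5 ± 10.2 in young and 62 ± 7.08 in PLX5622. Slc30a7, which loads zinc into the Golgi, was at 54.9 ± 18.4, 33.9 ± 7.10, 47.2 ± 6.38 and 51.4 ± 7.07 TPM in the same order. Neither was called in any comparison. The copper importer Slc31a1 averaged 20.4 TPM and its relative Slc31a2 38.8 TPM, the zinc exporter Slc30a1 12.1 TPM and the magnesium carriers Slc41a1 and Slc41a3 9.04 and 5.47 TPM. Slc39a12, another zinc importer, was at 7.24, 6.58, 7.41, 7.25 and 5.83 TPM in AF-high, 3.89, 6.59 and 7.68 TPM in AF-low, 10.2, 12.7 and 9.70 TPM in young and 7.79, 8.56, 10.8 and 8.06 TPM in PLX5622. Its old gated libraries (at most 7.68 TPM) thus all lay under the others (at least 7.79 TPM), with limma adjusted p from 0.211 to 0.979 over the 6 comparisons.

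**Figure D3:**
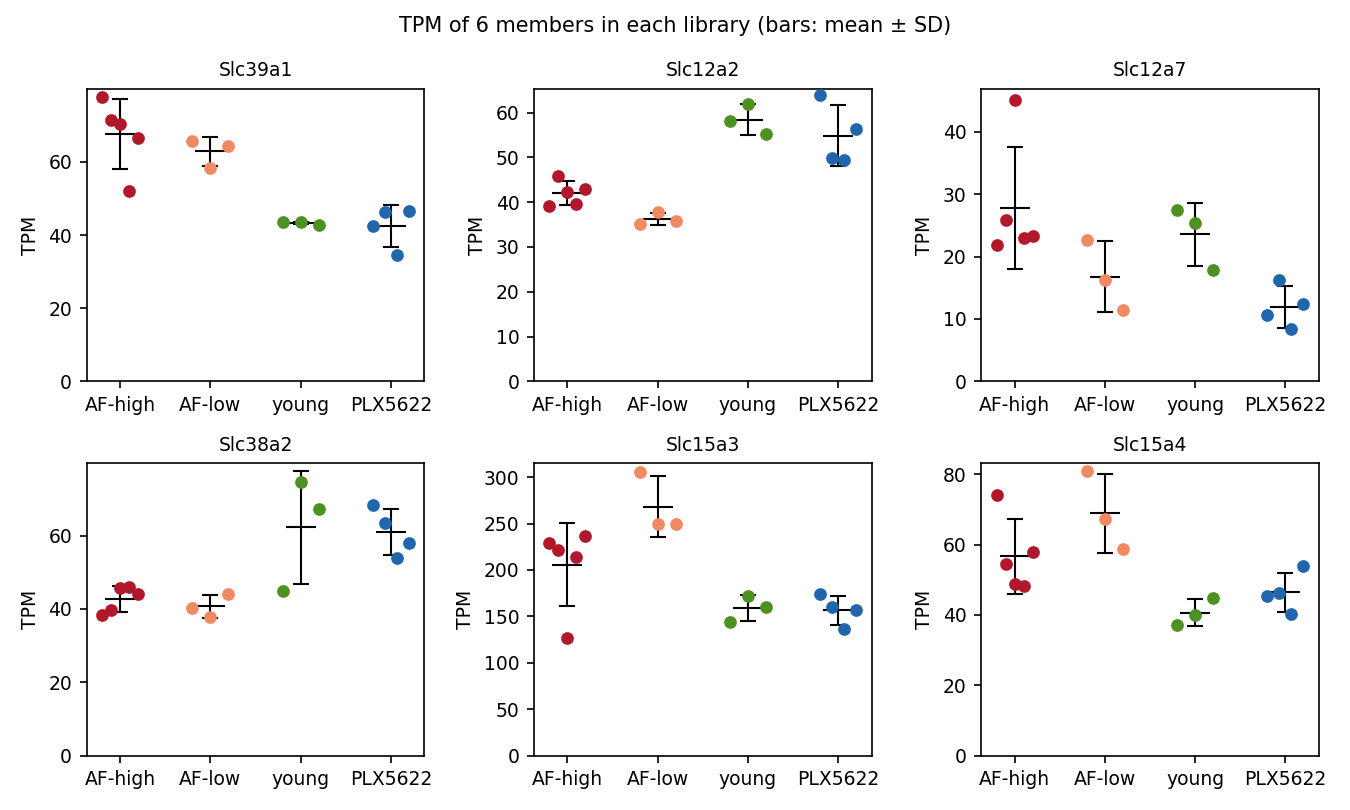
TPM of Slc39a1, Slc12a2, Slc12a7, Slc38a2, Slc15a3 and Slc15a4 in each library, 1 point per library, with bars for the mean ± SD of AF-high (n = 5), AF-low (n = 3), young (n = 3) and PLX5622 (n = 4); all axes start at 0. Slc39a1 lies between 52.1 and 77.8 TPM in the old gated libraries and between 34.6 and 46.7 TPM in the others, while Slc12a2 shows the opposite order.

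Amino acid carriers formed the most abundant class, and none of the 27 was called in any comparison. They summed to 2487 ± 394 TPM in AF-high, 2657 ± 16.03 in AF-low, 2336 ± 321 in young and 2381 ± 220.2 in PLX5622. Slc3a2 (CD98 heavy chain) ran from 661 to 1430 TPM in AF-high, 1080 to 1310 in AF-low, 700 to 1060 in young and 946 to 1270 in PLX5622, so its groups overlapped except AF-low and young. Its light-chain partners were far lower: Slc7a8, which exchanges neutral amino acids, averaged 171 TPM, the cystine and glutamate exchanger Slc7a11 13.4 TPM and Slc7a5, a carrier of large neutral amino acids, 9.02 TPM. Slc38a6, a member of the neutral amino acid family, was at 211 ± 35 TPM in AF-high, 189 ± 17.2 in AF-low, 231 ± 31.3 in young and 216 ± 17.4 in PLX5622, and Slc6a6, the taurine importer, averaged 76.3 TPM. The peptide importer Slc15a2 averaged 139 TPM, the glutamate importer Slc1a3, better known from astrocytes, 81.2 TPM and the light chain Slc7a7, which exports cationic amino acids, 76.8 TPM. Slc1a3 was at 91.6 and 92 TPM in young 1 and young 2, with the high astrocyte marker sums, and at 76.8 TPM in young 3. It ran from 72.4 to 78.1 TPM in AF-low, 62.5 to 79.2 in PLX5622 and 76.3 to 112 in AF-high, where the highest library, AF-high 2, had the next highest astrocyte sum (30.8 TPM). The part of astrocyte RNA in Slc1a3 was not tested.

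The lysosomal peptide carriers Slc15a3 and Slc15a4 were higher in every AF-low library than in young and PLX5622, without passing the test with all libraries. Slc15a3 exports histidine and small peptides from lysosomes. It was at 229, 221, 127, 214 and 237 TPM in AF-high, 306, 249 and 249 TPM in AF-low, 144, 172 and 160 TPM in young and 174, 160, 136 and 157 TPM in PLX5622. AF-low lay above every library of the other 3 groups, and AF-high 3, at 127 TPM, lay far below the other AF-high libraries. The change in PLX5622 against AF-low was -0.77 ± 0.19 (limma adjusted p = 0.116) and in AF-low against young 0.75 ± 0.20 (adjusted p = 0.183). Without AF-high 3, Slc15a3 was called in PLX5622 against AF-low (-0.77, adjusted p = 0.0335), in PLX5622 against AF-high (-0.53, adjusted p = 0.046) and in the F test (adjusted p = 0.0326). That omission raised the calls over all genes from 19 to 29, from 83 to 119 and from 46 to 88 in the same order, and left the change against AF-low at -0.77. Slc15a4, its relative that is needed for endosomal Toll-like receptor signalling, was at 74.2, 54.6, 48.7, 48.1 and 57.8 TPM in AF-high, 80.9, 67.2 and 58.7 TPM in AF-low, 37.2, 40.1 and 44.7 TPM in young and 45.5, 46.2, 40.3 and 53.8 TPM in PLX5622. AF-high and AF-low both lay above young without overlap, at 0.46 ± 0.16 (adjusted p = 0.318) and 0.74 ± 0.18 (adjusted p = 0.148).

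The late endosome and lysosome list holds 18 tested genes of 20, of which 16 are members. It had 0 calls in all 6 comparisons, with a median change between -0.09 and 0.04 against -0.11 to -0.02 over all genes. Among its members the arginine sensor Slc38a9 averaged 32.4 TPM and the proton-coupled amino acid carrier Slc36a1 26.9 TPM, with no group apart. The amino acid sensing list of mTORC1 and its lysosomal anchors (15 tested genes of 16) had 0 calls, with medians between -0.08 and 0.02.

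Among further amino acid carriers, some groups lay apart without passing the test. Slc38a2 (SNAT2), which amino acid shortage induces, was at 38.4, 39.6, 45.7, 45.9 and 44 TPM in AF-high, 40.2, 37.9 and 44.1 TPM in AF-low, 44.9, 74.6 and 67.2 TPM in young and 68.4, 63.3, 54 and 57.9 TPM in PLX5622. All PLX5622 libraries lay above all AF-high (0.50 ± 0.15, adjusted p = 0.114) and AF-low libraries (0.57 ± 0.17, adjusted p = 0.151), and AF-low lay below young (-0.57 ± 0.18, adjusted p = 0.225). Slc43a2 (LAT4), a carrier of branched and aromatic amino acids, was at 42.2, 65.1, 27.2, 26.8 and 36 TPM in AF-high, 35, 34.4 and 36.3 TPM in AF-low, 19.3, 31.3 and 25.4 TPM in young and 19, 18.7, 23.4 and 19 TPM in PLX5622. The PLX5622 libraries all lay below AF-high (-0.87 ± 0.23, adjusted p = 0.08) and below AF-low (-0.79 ± 0.26, adjusted p = 0.178), and AF-low lay above young (0.49 ± 0.27, adjusted p = 0.509). The difference of PLX5622 from AF-high was called in 2 of 26 alternative settings, without AF-high 4 (-0.99, adjusted p = 0.0466) and with array weights (-0.82, adjusted p = 0.0302).

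The creatine importer Slc6a8 was at 5.98, 6.08, 23.6, 12.4 and 9.74 TPM in AF-high, 6.91, 7.02 and 5.69 TPM in AF-low, 6.55, 4.71 and 4.93 TPM in young and 5.74, 3.09, 2.12 and 4.6 TPM in PLX5622. PLX5622 did not overlap with AF-high (-1.26 ± 0.33, adjusted p = 0.0853), and 1 AF-high library, number 3, stood well above the others. Slc7a15 was at 8.49, 10.1, 5.93, 8.32 and 9.43 TPM in AF-high and 1.80, 5.50 and 3.60 TPM in AF-low, with no overlap (1.10 ± 0.27, adjusted p = 0.466), while young spread from 4.6 to 8.95 TPM and PLX5622 from 6.25 to 7.93. PLX5622 lay above AF-low (0.94 ± 0.29, adjusted p = 0.158). This was called in 1 of 26 alternative settings, without AF-low 2 (1.23, adjusted p = 0.0426). Without that library the calls over all genes in this comparison rose from 19 to 398. Slc16a10, a carrier of aromatic amino acids, was at 46.1, 46, 42.3 and 44.6 TPM in PLX5622 and 37.7, 35.2 and 37.2 TPM in young, without overlap (0.28 ± 0.25, adjusted p = 0.979).

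Carriers known to be induced by amino acid shortage through the transcription factor Atf4 were 7 tested genes of 9, of which 5 were members. None was called, and their medians ran from -0.11 to 0.07 over the comparisons. Atf4 itself was at 448 ± 104 TPM in AF-high, 548 ± 25.7 in AF-low, 471 ± 82.6 in young and 469 ± 21.3 in PLX5622, and none of the 9 tested genes of the 13 in the list of Atf4 and its target enzymes was called. A RefSeq window before a Slc7a11 start (GRCm38.p6, minus strand, chr3:50443614-50443863) is shown because it holds the element through which Atf4 acts, TGATGNAA. The element stands at 2 places, 1 on each strand, printed in capitals.
Slc7a11: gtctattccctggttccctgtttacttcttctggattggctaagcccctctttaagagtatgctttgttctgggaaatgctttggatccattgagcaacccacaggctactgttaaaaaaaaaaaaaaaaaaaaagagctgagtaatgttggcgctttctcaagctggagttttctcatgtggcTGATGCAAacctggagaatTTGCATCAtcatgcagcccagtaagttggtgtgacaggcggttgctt
The element was in the windows of 3.9% of all 27018 genes and of 4 members (3.36% of 119), namely Slc50a1, Slc7a11, Slc7a7 and Slc9a9. Slc7a11 was at 13.2 ± 2.52 TPM in AF-high, 14.96 ± 3.07 in AF-low, 12.1 ± 1.45 in young and 13.4 ± 1.90 in PLX5622, with a limma adjusted p of 0.654 to 0.979 in the comparisons.

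Among the 24 carriers of inorganic ions, the chloride cotransporters Slc12a2 and Slc12a7 ordered the groups differently, without passing the test with all libraries. Slc12a2 (NKCC1) brings sodium, potassium and chloride into cells. It was at 39.2, 45.9, 42.3, 39.6 and 42.9 TPM in AF-high, 35.1, 37.8 and 35.8 TPM in AF-low, 58.1, 62 and 55.1 TPM in young and 63.8, 49.8, 49.5 and 56.3 TPM in PLX5622. The young and PLX5622 libraries (49.5 TPM and above) all lay above the old gated ones (45.9 TPM and below). The change was -0.67 ± 0.14 in AF-low against young (limma adjusted p = 0.0814), 0.58 ± 0.13 in PLX5622 against AF-low (adjusted p = 0.0858), -0.47 ± 0.12 in AF-high against young (adjusted p = 0.184) and 0.37 ± 0.11 in PLX5622 against AF-high (adjusted p = 0.126). Without AF-low 2, Slc12a2 was called in AF-low against young (-0.70, adjusted p = 0.0418) and in PLX5622 against AF-low (0.61, adjusted p = 0.0443). That omission raised the calls over all genes from 6 to 182 and from 19 to 398 in these comparisons. The F test called it with quantile normalization (adjusted p = 0.0335) and with median scaling (0.0402).

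The potassium and chloride exporter Slc12a7 (KCC4) was at 21.9, 25.8, 45, 22.9 and 23.3 TPM in AF-high, 22.7, 16.3 and 11.4 TPM in AF-low, 27.4, 25.4 and 17.9 TPM in young and 10.7, 16.2, 8.37 and 12.4 TPM in PLX5622. The PLX5622 libraries lay below those of AF-high and young, by 1.14 ± 0.25 (adjusted p = 0.0541) and 0.94 ± 0.29 (adjusted p = 0.486) on the log2 scale. Young 1 and young 2, with the high choroid plexus and astrocyte sums, were the higher young libraries. The part of those cells was not tested. With both left aside the change of PLX5622 against young was -0.58. AF-high 3, at 45 TPM, stood far above the rest of AF-high. The difference from AF-high was called in 4 of 26 alternative settings, with a change of -1.29 to -0.91 and an adjusted p of 0.0348 to 0.224 over all 26. Those 4 were without AF-high 4 (-1.19, adjusted p = 0.0466), without AF-low 1 (-1.14, adjusted p = 0.0395), with a filter at a mean of 5 TPM (adjusted p = 0.0447) and with array weights (adjusted p = 0.0348). Slc26a6, an anion exchanger, was at 3.51, 4.28, 1.60, 2.92 and 6.18 TPM in AF-high, 3.75, 7.13 and 4.82 TPM in AF-low, 8.83, 6.35 and 15.9 TPM in young and 13.8, 12.8, 7.47 and 7.85 TPM in PLX5622. AF-high lay below young (-1.26 ± 0.34, adjusted p = 0.205) and below PLX5622, the difference of PLX5622 against AF-high being 1.32 ± 0.32 (adjusted p = 0.0657). Some of these libraries were under 5 TPM, where the pseudocount understates the change.

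The calcium exchangers Slc8b1 and Slc24a1 varied widely within the old gated groups, whereas Slc8a1, also a calcium exchanger, ran from 30.2 to 48.5 TPM there. Slc8b1 (NCLX), which moves calcium out of mitochondria, was at 72.4, 38.4, 32.9, 65.9 and 70.8 TPM in AF-high, 101, 24.3 and 71.5 TPM in AF-low, 25.3, 25.7 and 23.2 TPM in young and 36.7, 23.5, 25.2 and 24.9 TPM in PLX5622. AF-high lay above young without overlap (1.08 ± 0.37, adjusted p = 0.3) but not above PLX5622 1, and AF-low 2 was among the low libraries. Without AF-low 2, Slc8b1 was called in AF-low against young (1.74, adjusted p = 0.0238) and in PLX5622 against AF-low (-1.62, adjusted p = 0.0241). Slc24a1, a sodium, calcium and potassium exchanger best known from photoreceptors, was at 56.6, 21.4, 12.1, 10.6 and 64.7 TPM in AF-high, 61.6, 7.06 and 52.3 TPM in AF-low, 7.73, 12.7 and 11.4 TPM in young and 10.6, 9.45, 9.38 and 13 TPM in PLX5622. AF-high 1, AF-high 5, AF-low 1 and AF-low 3 were the high libraries, and the other 11 lay between 7.06 and 21.4 TPM. It too was called in PLX5622 against AF-low without AF-low 2 (-2.33, adjusted p = 0.0461).

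The same 4 libraries held the highest values of Slc12a4 (KCC1) and Slc39a14, an importer of zinc, manganese and iron. Slc12a4, which overlaps Gm16156 on the other strand, was at 14.3, 11.3, 4.13, 2.82 and 20.9 TPM in AF-high, 54.4, 4.29 and 29.8 TPM in AF-low, 5.66, 8.49 and 6.32 TPM in young and 4.42, 2.30, 2.83 and 2.73 TPM in PLX5622. It had the widest ratio between group means, 9.61, and the PLX5622 against AF-low change was -2.38 ± 0.67 (adjusted p = 0.142), or -1.68 without AF-low 1 (adjusted p = 0.434) and -3.37 without AF-low 2 (adjusted p = 0.0135, called). Slc39a14 was at 34.3, 12.7, 18.2, 7.04 and 37 TPM in AF-high, 93.4, 10.5 and 36.1 TPM in AF-low, 18.8, 21.5 and 9.24 TPM in young and 20.4, 13.4, 14.3 and 14.2 TPM in PLX5622. The border-associated macrophage sum was 277, 150, 161, 166 and 253 TPM in AF-high and 412, 259 and 314 TPM in AF-low, and AF-low 1, AF-low 3 and AF-high 1 had the highest sums. AF-low 2, next in the sum at 259 TPM, was low in all 4 genes. Within the sum the markers differed. Dab2 was at 154 and 170 TPM in AF-high 1 and 5, 286 and 155 TPM in AF-low 1 and 3, and at most 97.4 TPM elsewhere. Pf4 and F13a1 were instead highest in AF-low 2, at 84.7 and 17.2 TPM. The sum of 3 endothelial markers was 133 TPM in AF-low 1 against 29.1 to 69.1 TPM elsewhere, with Cdh5 at 73.2 TPM, and the microglial sum was lowest there at 6090 TPM. The marker genes' part in these values was not tested.

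The spread inside groups of the 155 members was close to that of all genes at 5 TPM or more. The median SD of log2(TPM + 1) was 0.36 for members and 0.38 for all such genes in AF-high, 0.33 and 0.32 in AF-low, 0.16 and 0.16 in young, and 0.20 and 0.18 in PLX5622. Members with an SD above 1 numbered 6 in AF-high, 7 in AF-low, 0 in young and 1 in PLX5622. Slc18a1, a vesicular monoamine carrier, had the largest SD in AF-high (1.18) and in PLX5622 (1.12), with values from 1.13 to 12.7 TPM over all libraries.

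**Figure D4:**
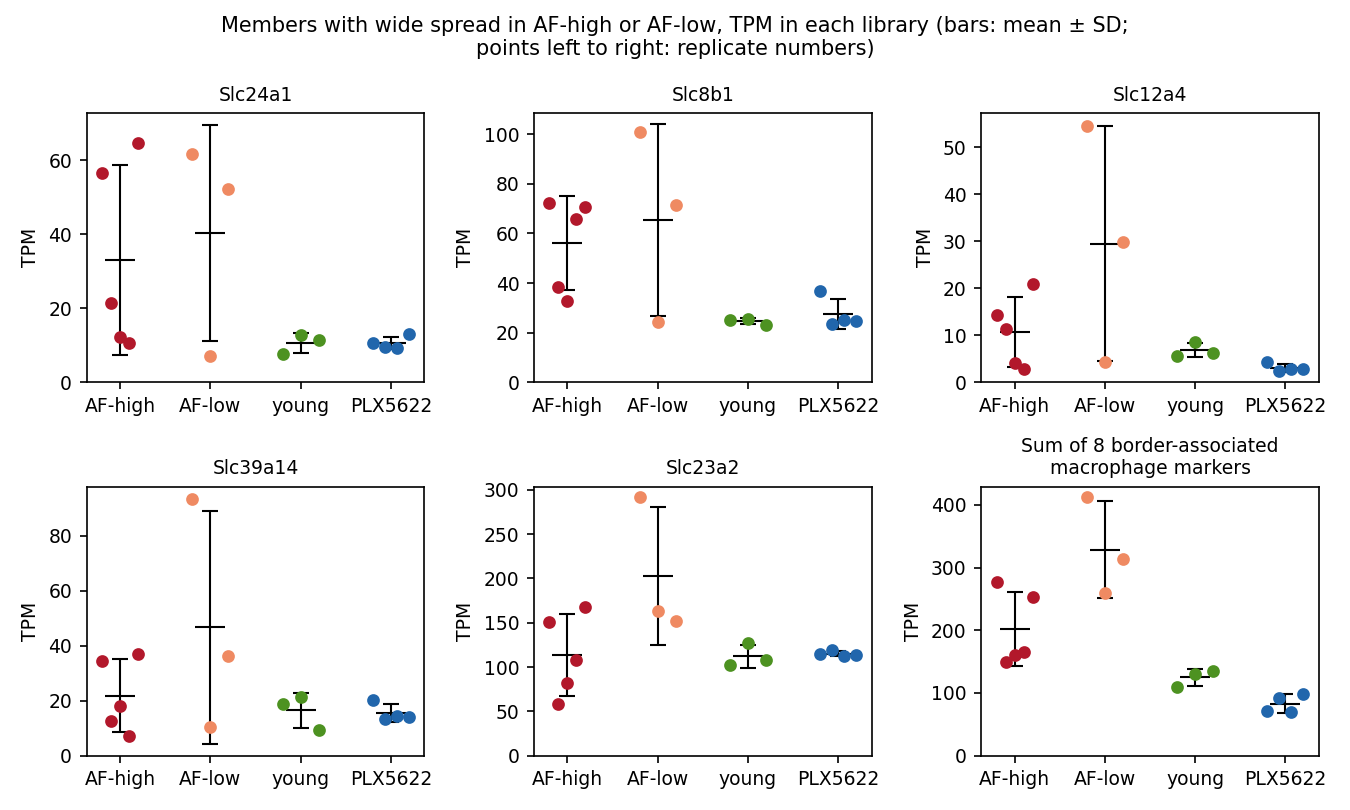
TPM of Slc24a1, Slc8b1, Slc12a4, Slc39a14 and Slc23a2, and the sum of 8 border-associated macrophage markers, in each library, 1 point per library in replicate order, with bars for the mean ± SD of AF-high (n = 5), AF-low (n = 3), young (n = 3) and PLX5622 (n = 4). AF-low 1 is the highest library for 4 of the 5 genes and for the marker sum (412 TPM, of which Dab2 made up 286 TPM), while Slc24a1 is highest in AF-high 5.

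The 24 ion carriers summed to 863 ± 81.9 TPM in AF-high, 907 ± 193 in AF-low, 789.7 ± 38.7 in young and 745 ± 38.9 in PLX5622. Of those not yet described, Slc20a1, the sodium-dependent phosphate importer, was at 106 ± 28.9 TPM in AF-high, 136 ± 66.2 in AF-low, 93.5 ± 13.1 in young and 88.1 ± 14.1 in PLX5622, and AF-low 1 at 212 TPM was its highest library. Slc9a9, an endosomal sodium and proton exchanger, was at 85.2 ± 9.75, 86.0 ± 14.8, 96.7 ± 9.86 and 97.0 ± 4.66 TPM in that order. Slc9a7, an exchanger of the Golgi, was at 39.1, 32.4, 38.1 and 33.1 TPM in PLX5622 and 25.5, 25.7 and 30.9 TPM in young, without overlap (0.37 ± 0.19, adjusted p = 0.961). The bicarbonate importer Slc4a7 averaged 68.4 TPM and the sodium and calcium exchanger Slc8a1 42.4 TPM. None of these was called.

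Sugar carriers were 9 of the members and none was called. They summed to 194 ± 19.4 TPM in AF-high, 195 ± 2.11 in AF-low, 199 ± 11.7 in young and 173 ± 16.8 in PLX5622. Slc2a1 (GLUT1), the main glucose importer, was at 72.3, 112, 41.7, 65.4 and 80.9 TPM in AF-high, 80.2, 60.4 and 82.8 TPM in AF-low, 47.7, 70.6 and 51.2 TPM in young and 58.9, 50.1, 50.7 and 62.2 TPM in PLX5622. The groups overlapped in every pair. Slc2a8, a hexose carrier of intracellular membranes, was at 3.51, 3.56 and 3.49 TPM in AF-low, below all AF-high libraries (3.95 to 7.17 TPM), young (6.76 to 8.24) and PLX5622 (4.77 to 7.35). Its difference in AF-low against young was -0.94 ± 0.22 (adjusted p = 0.13). Slc2a9, a urate carrier, was lower in AF-high (3.66 to 8.08 TPM) than in young (8.39 to 9.35), at -0.75 ± 0.28 (adjusted p = 0.333).

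Slc37a3 is a lysosomal membrane protein of the sugar phosphate family. It was at 9.13, 3.13, 27.7, 12 and 15.6 TPM in AF-high, 5.39, 4.5 and 3.98 TPM in AF-low, 10.9, 12 and 12.4 TPM in young and 14.5, 5.99, 4.96 and 6.19 TPM in PLX5622. AF-low lay below young without overlap (-1.19 ± 0.52, adjusted p = 0.378), whereas AF-high spread across both. Slc37a3 has more than 1 RefSeq window, and a window not shown holds the metal response core TGCGCNC. The window shown (GRCm38.p6, minus strand, chr6:39377708-39377957) was picked because it holds the lysosomal E-box TCACGTGA, in capitals. These are the letters that the lysosomal regulator Tfeb binds.
Slc37a3: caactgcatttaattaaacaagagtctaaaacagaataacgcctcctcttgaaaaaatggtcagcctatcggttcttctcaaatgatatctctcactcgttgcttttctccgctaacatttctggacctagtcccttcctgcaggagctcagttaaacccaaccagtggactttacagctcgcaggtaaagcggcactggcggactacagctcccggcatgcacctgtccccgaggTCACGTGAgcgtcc
Windows of 0.907% of all genes and of 3 members, Slc25a36, Slc35a5 and Slc37a3 (2.52% of 119), held it. The interferon-stimulated response element was in 0 of the 119 members' windows and in 3.46% of all.

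Slc37a2, a sugar phosphate exchanger, averaged 33.15 TPM and Slc50a1, a Golgi sugar carrier, 32.9 TPM. In AF-high 2, Slc50a1 was at 10.4 TPM against 30.1 to 35.3 TPM in the other AF-high libraries. The list of glucose and lactate carriers of the plasma membrane (5 tested genes of 5, 4 of them members) had 0 calls, with medians from -0.41 in PLX5622 against AF-low to 0.25 in AF-low against young. Slc2a3, a high-affinity glucose importer, was at 6.57 ± 3.30 TPM in AF-high, 10.9 ± 3.21 in AF-low, 6.24 ± 1.15 in young and 6.53 ± 1.20 in PLX5622. Slc16a3 (MCT4), a lactate exporter, was at 24.4 ± 4.63, 24.01 ± 10.2, 19.1 ± 3.99 and 16.0 ± 2.52 TPM in the same order.

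Among the carriers of carboxylates, lipids and choline, none of 17 was called. Their sum was 583 ± 67.3 TPM in AF-high, 572 ± 3.15 in AF-low, 585 ± 12.04 in young and 505 ± 43.4 in PLX5622. Slc16a6 was at 319 ± 49.95 TPM in AF-high, 317 ± 10.1 in AF-low, 313 ± 14.3 in young and 279 ± 35.9 in PLX5622. Slc44a2, a choline carrier, was at 84.5 TPM in AF-high 2 and at 42.2 to 47.7 TPM in the other AF-high libraries. Slc13a3, which imports dicarboxylates, was at 9.46, 8.92, 8.73, 4.56 and 6.12 TPM in AF-high and 3.12, 3.78 and 4.53 TPM in AF-low, 4.12 to 5.53 TPM in young and 2.11 to 4.99 TPM in PLX5622. PLX5622 differed from AF-high by -0.93 ± 0.24 (adjusted p = 0.08), and by -1.07 without AF-high 4 (adjusted p = 0.0409, called). The mean of Slc13a3 over all libraries, 5.18 TPM, reached the threshold for members only through its AF-high values. Its differences from AF-high are therefore a description and no support.

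Slc22a17, a receptor for the iron-binding protein lipocalin 2, was at 39.4, 31.6 and 16.8 TPM in young and 9.21 to 15.1 TPM in AF-low, without overlap (-1.19 ± 0.50, adjusted p = 0.365). Young 1 and young 2, with the high choroid plexus and astrocyte sums (8830 and 5830 TPM, 143 and 141 TPM), were the high libraries, and the part of those cells was not tested. With both left aside the change was -0.51 (adjusted p = 0.998). Slc22a21, a carnitine carrier, was at 4.35, 4.20, 3.94 and 3.72 TPM in PLX5622 and 11.5, 5.10 and 9.26 TPM in AF-low, without overlap (-0.87 ± 0.46, adjusted p = 0.409). Slc16a7 (MCT2) averaged 34.96 TPM with no group apart. Slc17a5, which exports sialic acid from lysosomes, averaged 18.4 TPM and Slc27a1, a fatty acid carrier, 11.9 TPM.

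Carriers of nucleosides and nucleotide sugars numbered 20 members, with none called. They summed to 803 ± 94.01 TPM in AF-high, 759 ± 36.7 in AF-low, 743 ± 59.5 in young and 649 ± 50.3 in PLX5622. The lysosomal nucleoside carrier Slc29a3, whose loss in humans causes a disorder of macrophages, was at 235 ± 45.8 TPM in AF-high, 214 ± 12.3 in AF-low, 208 ± 7.77 in young and 189 ± 11.9 in PLX5622. Slc35b2, which takes the sulfate donor PAPS into the Golgi, was at 97.7, 227, 128, 110 and 175 TPM in AF-high, 129, 106 and 103 TPM in AF-low, 81.2, 105 and 117 TPM in young and 90.2, 77.3, 77.0 and 102 TPM in PLX5622. Within AF-high, only library 1 overlapped with PLX5622, and the difference of PLX5622 from AF-high was -0.70 ± 0.21 (adjusted p = 0.127). Slc35b1, an ATP and ADP exchanger of the endoplasmic reticulum, was at 70.9 ± 14.8 TPM in AF-high, 100.1 ± 25.4 in AF-low, 75.4 ± 7.17 in young and 68.5 ± 12.2 in PLX5622. Among carriers of nucleotide sugars into the Golgi, Slc35a3 averaged 33.3 TPM, the sialic acid donor carrier Slc35a1 18.5 TPM and the galactose donor carrier Slc35a2 5.53 TPM, the lowest of the class.

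The 4 vitamin and heme carriers summed to 196 ± 45.3 TPM in AF-high, 276 ± 65.2 in AF-low, 209 ± 2.895 in young and 214 ± 13.3 in PLX5622. Slc23a2, the ascorbate importer, was at 151, 58.8, 81.9, 108 and 168 TPM in AF-high, 292, 163 and 152 TPM in AF-low, 102, 127 and 108 TPM in young and 115, 119, 112 and 114 TPM in PLX5622. AF-low lay above young (0.79 ± 0.32, adjusted p = 0.342, or 0.49 without AF-low 1) and above PLX5622, while AF-high reached both sides. Slc46a1, a proton-coupled folate importer, was at 14.8, 15, 12.2, 12.3 and 12.2 TPM in AF-high, 8.37, 12.4 and 13.4 TPM in AF-low, 19.5, 16.6 and 15.3 TPM in young and 17.8, 17.0, 15.4 and 15.8 TPM in PLX5622. All old gated libraries were at most 15 TPM and all others at least 15.3 TPM, with an adjusted p of 0.214 to 0.994 over the comparisons.

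Slc48a1 (HRG1) exports heme from the phagolysosome, and Slc46a3 is a lysosomal carrier. Slc48a1 was at 9.16, 6.03, 9.32, 7.76 and 8.57 TPM in AF-high, 1.64, 5.55 and 4.94 TPM in AF-low, 8.51, 10.4 and 10.7 TPM in young and 7.13, 7.34, 5.09 and 6.31 TPM in PLX5622. AF-low lay below AF-high (0.96 ± 0.27 for AF-high against AF-low, adjusted p = 0.471) and below young (-1.21 ± 0.30, adjusted p = 0.148). The difference from young was called in 1 of 26 alternative settings, without AF-low 2 (-1.45, adjusted p = 0.039). Without AF-low 1 the values against AF-high and young were 0.54 and -0.80. An exon of Hdac7 on the other strand overlaps the gene. Slc46a3 was at 60.6 ± 23.0 TPM in AF-high, 58.1 ± 13.1 in AF-low, 69.9 ± 9.99 in young and 76.6 ± 9.11 in PLX5622.

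Mitochondrial carriers, the largest class with 31 members, gave no call. The class was set by family and takes in all Slc25 members, whatever membrane each lies in. Their sum was 1445 ± 136 TPM in AF-high, 1412 ± 24.2 in AF-low, 1570 ± 111 in young and 1394 ± 74.98 in PLX5622. The phosphate carrier Slc25a3 was at 407 ± 66.8 TPM in AF-high, 398 ± 73.1 in AF-low, 393 ± 52.9 in young and 359 ± 50.8 in PLX5622. Slc25a5, which exchanges ADP for ATP, was at 351 ± 69.1, 316 ± 65.7, 399.7 ± 28.2 and 347 ± 22.6 TPM in the same order. Slc25a36, a pyrimidine nucleotide carrier, was at 124 ± 37.2 TPM in AF-high, 131 ± 22.0 in AF-low, 166 ± 8.30 in young and 167 ± 16.1 in PLX5622. In PLX5622 against young, 25 of the 31 were lower (80.6%, beside 69.3% of all genes), with a median of -0.16 beside -0.11. Every PLX5622 library lay below every young library for 6 of the 31 (19.4%, beside 12.7% of all genes).

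Single mitochondrial carriers differed in named ways. Slc25a4, the second ADP/ATP carrier, was at 28.4, 31.5, 24.5 and 27.4 TPM in PLX5622 and 34.9, 45.4, 47.1, 34.4 and 41.2 TPM in AF-high, without overlap (-0.52 ± 0.15, adjusted p = 0.105). PLX5622 also lay below AF-low (-0.48 ± 0.17, adjusted p = 0.21) and below young (-0.44 ± 0.17, adjusted p = 0.799) without overlap. Slc25a1, the citrate exporter, was at 8.75, 6.17, 7.90 and 6.79 TPM in PLX5622 and at 13.3, 14.1 and 12.6 TPM in young (-0.78 ± 0.36, adjusted p = 0.949). Slc25a16, linked to coenzyme A, was at 4.53, 7.59, 5.85, 9.36 and 5.43 TPM in AF-high and 10.1, 11.5 and 11.2 TPM in young, without overlap (-0.70 ± 0.28, adjusted p = 0.378).

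Slc25a40, linked to glutathione import and the member with the lowest mean, was at 0.688, 3.80 and 3.15 TPM in AF-low and 5.43, 4.68, 7.22 and 3.91 TPM in PLX5622, without overlap (0.94 ± 0.37, adjusted p = 0.274). The mean of Slc25a40 over all libraries, 5.03 TPM, would not reach the threshold for members without its PLX5622 values. Its difference from AF-low is therefore a description and no support. The partner of Slc25a40 in glutathione import, Slc25a39, averaged 12.7 TPM. The iron importer Slc25a37 averaged 37.8 TPM, the oxoglutarate carrier Slc25a11 52.5 TPM, the carnitine carrier Slc25a20 28.1 TPM and the aspartate and glutamate exchanger Slc25a12 22.6 TPM. The lowest single value of any member was 0.311 TPM, for Slc25a2, an ornithine carrier, in AF-low 2.

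The 3 members that are not transporters were Slc4a1ap, an adaptor protein, Slc7a6os, named for its place opposite another carrier gene, and Slc9a3r1, a scaffold of membrane transporters. They averaged 39.4, 31.6 and 20.2 TPM, and none was called with all libraries. Without AF-low 2, Slc4a1ap was called in PLX5622 against AF-low (0.73, adjusted p = 0.0444).

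Carriers without an Slc symbol were read from the same fit. Of 44 listed, 34 were tested and 1 was called, in PLX5622 against AF-high, where 0.630% of all genes were. It was Ucp2, a mitochondrial carrier of the Slc25 family that is known to be abundant in macrophages. Ucp2 was at 674, 858, 660, 713 and 902 TPM in AF-high, 789, 633 and 930 TPM in AF-low, 534, 640 and 668 TPM in young and 461, 455, 386 and 531 TPM in PLX5622. The PLX5622 libraries were the lowest and overlapped with no other group. Ucp2 fell by 0.73 ± 0.14 on the log2 scale in PLX5622 against AF-high (limma adjusted p = 0.0384), and was -0.76 ± 0.16 in PLX5622 against AF-low (adjusted p = 0.0858). The call held in 13 of 26 alternative settings, at -0.80 to -0.63. It was lost without any 1 of AF-high 2, AF-high 5, the young and the PLX5622 libraries (adjusted p = 0.0539 to 0.178) and with quantile normalization (0.0605), with young 1 and young 2 left aside (0.0941) and with only both groups in the fit (0.0797). The list's medians ran from -0.19 to -0.01. The 7 tested accessory subunits and scaffolds of 8, among them Bsg, which escorts lactate carriers to the surface, had 0 calls, with Bsg at 196 ± 44.9 TPM in AF-high, 131 ± 13.8 in AF-low, 186 ± 51.8 in young and 135 ± 14.4 in PLX5622.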

How the data were processed

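RNA of sorted microglia was amplified with the Ovation RNA-seq kit and sequenced, per the labels' protocols. The authors deposited TPM per gene symbol. The submitters' processing notes name FastQC 0.11.8, Salmon 1.0.0, DESeq2 (no version) and GRCm38 (mm10). The sources used here give no annotation, strand setting or filters. TPM keeps no depth, so no counting error was computed. Symbols of 19 rows read as dates and could not be matched to genes.

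Values were taken as log2(TPM + 1) for 13175 genes, those reaching 1 TPM in 3 or more libraries. All 15 libraries entered 1 model in limma 3.58.1 (R 4.3.3, jsonlite 2.0.0; eBayes with a variance trend, 11 residual and 4.151 median prior degrees of freedom). Two-sided tests were used, with Benjamini-Hochberg adjustment over all genes in each of 6 comparisons and for an F test. Every adjusted p is limma's. The script was tested on simulated data. Libraries were taken as independent.

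Members, classes and lists were chosen from general knowledge with earlier results of these data known. Named genes were members called; the 3 highest of each class; the 3 largest rises and 3 largest falls per comparison among members whose groups do not overlap; members at the 5 TPM threshold; and members with a 4-fold ratio of group means. Slc24a1, Slc39a14, Slc39a12, Slc2a8, Slc25a4, Slc18a1 and members of the fixed lists or partners of Slc3a2, Slc25a2, and members given by their mean alone for their known roles were named after their values were seen. The results of 3 members are not reported here. Positions are from GENCODE M21, promoters from RefSeq. Python 3.11.15 and matplotlib 3.10.9 drew the figures. Alternatives were another pseudocount, other filters and scalings, array weights, robust variances, a replicate block, fewer groups and leaving out libraries.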

Additional observations from a re-analysis of the deposited data

Results flagged for a closer look

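In groups of 4 or 5 libraries, 100 pairs of a named member and a group were searched for a library far from the rest of its group, and 8 were found. Chance alone gives such a gap in about 5 of 100 groups. In AF-high 3, Slc12a7 was at 45 TPM against 21.9 to 25.8 in the rest of its group, and Slc15a3 was at 127 TPM against 214 to 237. In AF-high 2, Slc44a2 was at 84.5 TPM against 42.2 to 47.7, and Slc50a1 was at 10.4 TPM against 30.1 to 35.3. In PLX5622 1, Slc37a3 was at 14.5 TPM against 4.96 to 6.19, and Slc8b1 was at 36.7 TPM against 23.5 to 25.2. In PLX5622 3, Slc43a2 was at 23.4 TPM against 18.7 to 19, and Slc7a15 was at 6.25 TPM against 7.67 to 7.93.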

How the results depend on the processing

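The number of members called in PLX5622 against AF-high was 1 with all libraries. It was 2 with a filter at a mean of 5 TPM (Slc12a7 and Slc39a1), 0 with median scaling, 6 with array weights, 0 with young 1 and young 2 left aside, 2 (Slc15a3 and Slc8b1) without the trio of AF-low 1, AF-high 2 and AF-high 3, and 0 with only both groups in the fit. Quantile normalization kept a count of 1, but the called member was Slc38a2 (0.62, adjusted p = 0.0464). Leaving out 1 library at a time gave 0 to 4, the 4 without AF-high 4. In AF-high against young 0 became 2 with array weights, and in PLX5622 against young 0 became 4. In AF-low against young, leaving out 1 library gave 0 to 3, the 3 without AF-low 2. In PLX5622 against AF-low it gave 0 to 6, the 6 without AF-low 2, and the triple omission gave 1. The F test called 0 members, 2 with quantile normalization, 1 with median scaling, 9 with array weights, 1 under the triple omission and 0 to 4 without 1 library. The calls over all genes in the same settings belong beside these counts. With array weights they were 441 in PLX5622 against AF-high, 129 in AF-high against young, 420 in PLX5622 against young and 807 in the F test, of 13175 genes. Without AF-low 2 they were 182 in AF-low against young and 398 in PLX5622 against AF-low. Without AF-high 4 they were 205 in PLX5622 against AF-high. The causes were not tested. Over 35 pairs of a named gene and a comparison, each in 26 settings, 865 values kept direction and side of the threshold, 31 lost the call (Slc39a1 or Ucp2), 14 gained one and 0 reversed.

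Calls over all genes moved as well: 83 in PLX5622 against AF-high became 0 with the replicate block, 441 with array weights and 1 to 205 without 1 library. AF-low against young had 6 (0 to 182), PLX5622 against AF-low 19 (0 to 398), PLX5622 against young 12 (0 to 420), AF-high against young 0 (0 to 129), AF-high against AF-low 0 (0 to 1) and the F test 46 (0 to 807).

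Correlations of deviations between same-numbered libraries of different groups ran from -0.08 to 0.14, within the range of differently numbered ones (-0.18 to 0.17). For AF-high and young alone, the same-numbered pairs ran from 0.02 to 0.14 and the others from -0.1 to 0.09. With 3 or 4 same-numbered pairs for each pair of groups, the check cannot decide whether replicate numbers were paired. This check cannot show whether AF-high and AF-low libraries shared animals under other numbers. With the replicate block the members called in PLX5622 against AF-high were 0, and Slc39a1 was at -0.66 (adjusted p = 0.142) and Ucp2 at -0.66 (adjusted p = 0.143). TPM without read counts, groups of 3 to 5 libraries and unknown pooling limit what these data can resolve.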
